A study of Drosophila melanogaster with 6 samples.

Results

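A group of 8 muscle genes was followed in RNA sequencing of the Drosophila melanogaster midgut: the LIM protein genes Mlp60A and Mlp84B, the Z-disc genes Zasp52, Zasp66 and Actn, the calponin-related gene Mp20, and the muscle regulators Mef2 and how. The genes were taken by symbol, for their roles in muscle, from the 17116 genes listed in the counts. They were chosen with earlier results of these data known. All 8 were among the 8607 genes with enough reads to test. The samples were midguts of w1118 females, a white-eyed laboratory strain used as wild type, aged 8 days. There were 3 samples of virgin females and 3 of mated females taken 3 days after mating, and each sample pooled 30 guts. All carried the same genotype, and virgin females were the control.

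The midgut tube is wrapped in visceral muscle, striated in the fly, whose contraction moves food along the gut. In striated muscle, actin filaments of neighbouring contractile units are anchored and cross-linked at the Z-disc, where alpha-actinin, PDZ-domain proteins of the Zasp family and LIM-domain proteins gather. Mef2, a MADS-box transcription factor, switches on many muscle genes in the fly, and How, an RNA-binding protein of the STAR family, acts after transcription in muscle and tendon cells.

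Gene counts per library lay between 15902696 and 29021297, with 9085 to 9359 genes detected in virgin and 9616 to 10237 in mated samples. Reads placed at several positions also separated the groups (4.31% to 4.98% in virgin, 5.67% to 7.67% in mated samples), and their part in the results was not tested. So did the scaling factors between libraries from TMM, the trimmed mean of M-values (1.04 to 1.13 and 0.86 to 0.965). Fold changes without these factors are given below. The 8 genes had between 298 and 6126 counts in a library, so that counting error alone was at most 5.79% of a value (1 SD, for how in mated 2). Enterocyte markers were abundant in every library, with summed levels of 2646 to 3231 CPM (counts scaled to a common library size) in virgin and 3049 to 3246 CPM in mated samples. The virgin 2 library held 22.7 CPM of the ovary gene osk, which was at or below 0.127 CPM in the other 5, and mated 1 held 33.5 CPM of the fat body gene to, which was at or below 4.38 CPM elsewhere; results are therefore given without these libraries where a call changed. Nothing in the labels places the pools in separate cultures, and the spread behind the p-values may be technical. In pooled tissue, a change in the number of muscle cells and a change in RNA per muscle cell cannot be told apart.

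The study set out to find changes of the female intestine that come with reproduction. In mated samples, 4 of the 8 genes rose, 0 fell and 4 did not pass. Both LIM protein genes, Zasp66 and Mp20 rose by 1.75-fold to 2.54-fold, whereas Zasp52, Actn, Mef2 and how had ratios of 1.08 to 1.37 and did not pass. Across all tested genes, 2.47% passed as higher in mated samples and 1.63% as lower (edgeR's quasi-likelihood test, adjusted p below 0.05 over all genes). The median log2 fold change of the 8 genes was 0.63, beside -0.05 for all tested genes, and all 8 values were positive, as were 45% of all. In 6 of the 8, all 3 mated libraries lay above all 3 virgin libraries, which was true of 11.6% of all tested genes. At an unadjusted p below 0.05, 7 of the 8 were higher, against 8.39% of all tested genes. Since the 8 genes were chosen with earlier results of these data known, these shares describe the group and do not test it.

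**Figure D1:**
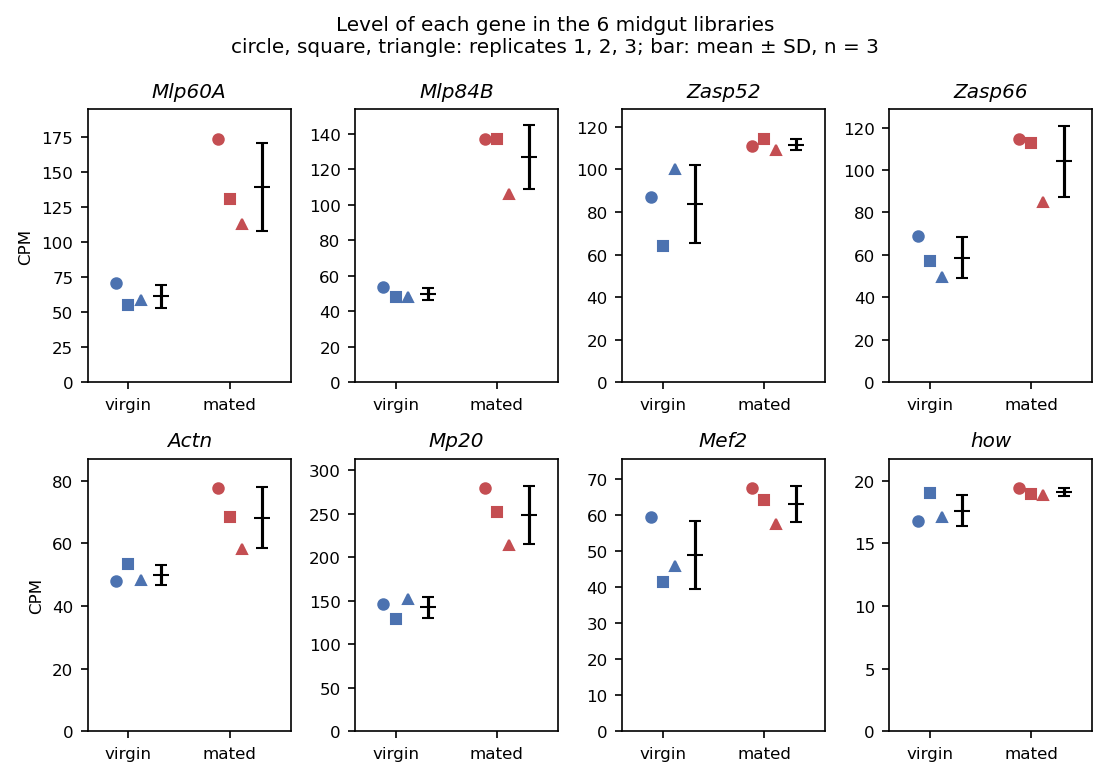
Level of each gene in CPM (vertical axis, starting at 0) in every virgin (blue) and mated (red) library, with replicates 1, 2 and 3 as circles, squares and triangles and the mean ± SD of 3 libraries in black. The groups are widely apart for Mlp60A, Mlp84B and Mp20, and overlap for Mef2 and how.

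Mlp84B (3R, 7112850 to 7117732, minus strand, dm6 coordinates) encodes the longer of the muscle LIM proteins of the fly, relatives of the vertebrate cysteine-rich muscle LIM protein, and showed the greatest difference of the 8. It was at 53.5, 47.8 and 48.0 CPM in virgin 1, 2 and 3, and at 137, 137 and 106 CPM in mated 1, 2 and 3. Virgin libraries were close to each other, and the lowest mated library lay 52.3 CPM above the highest virgin one. The means were 49.8 ± 3.24 and 127 ± 18.0 CPM (SD, n = 3 each), and edgeR gave a log2 difference of 1.35 ± 0.14 (SE) with an adjusted p = 0.000367. It passed with each library left out in turn (adjusted p of 0.00092 to 0.00381).

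Mlp60A (2R, 24074602 to 24078223, plus strand), the gene of the shorter LIM protein, was at 70.5, 54.9 and 58.4 CPM in virgin 1, 2 and 3. Mated 1, 2 and 3 held 174, 131 and 113 CPM. The mated libraries were all higher, though they spread more widely, with mated 1 the highest of all. The group means were 61.2 ± 8.18 and 139 ± 31.4 CPM (SD, n = 3 each) and the log2 fold change 1.18 ± 0.17 (SE; adjusted p = 0.0031 in edgeR). Mlp60A passed with each library left out in turn (adjusted p up to 0.0213), and its log2 fold change was 0.92 without virgin 2 and mated 1 together. Within a library, Mlp84B had 0.817 ± 0.0559 counts for each count of Mlp60A in virgin and 0.926 ± 0.132 in mated samples (SD, n = 3 each). These ratios overlapped between the groups (exact permutation p = 0.3, two-sided; 3 against 3 libraries cannot go below 0.1).

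Of the Z-disc genes, 1 of 3 passed. This was Zasp66 (3L, 8624371 to 8638813, plus strand), the gene of a small PDZ-domain protein of the Alp/Enigma family. It had 69.0, 57.2 and 49.7 CPM in the virgin libraries and 115, 113 and 84.8 CPM in the mated ones, in order of replicate. Every mated library was above every virgin one, by 15.8 CPM at the nearest. Its log2 fold change was 0.83 ± 0.16 (SE; adjusted p = 0.0163 in edgeR), with group means of 58.6 ± 9.75 and 104 ± 16.7 CPM (SD, n = 3 each). Leaving out virgin 2, virgin 3, mated 1 or mated 2 ended the call, with adjusted p of 0.056 to 0.0758 and log2 fold changes of 0.74 to 0.82.

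Zasp52 (2R, 15762565 to 15817004, minus strand), the larger Alp/Enigma protein gene, which also serves at integrin adhesion sites and has 22 annotated transcripts, was at 87.2, 64.0 and 100.2 CPM in virgin 1, 2 and 3. Mated libraries held 111, 115 and 109 CPM. The mated values were close together and above the virgin ones, which spread over a wider range, with virgin 2 the lowest. The log2 fold change was 0.41 ± 0.16 (SE; 95% interval 0.06 to 0.77) and did not pass (adjusted p = 0.207 in edgeR); it ranged from 0.26 without virgin 2 to 0.58 without virgin 3.

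Actn (X, 2023822 to 2042311, minus strand) encodes alpha-actinin, the protein that cross-links actin filaments of opposite direction, with muscle and non-muscle isoforms in the fly. Virgin 1, 2 and 3 had 47.9, 53.5 and 48.3 CPM, and mated 1, 2 and 3 had 77.7, 68.5 and 58.3 CPM. The groups did not overlap, but mated 3 lay only 4.79 CPM above virgin 2. The log2 fold change of 0.45 ± 0.14 (SE; 95% interval 0.15 to 0.75) did not pass in edgeR (adjusted p = 0.11), whereas DESeq2 called it (adjusted p = 0.0467), as it did 4.54% of all tested genes on the higher side. Actn shares 15.7% of its exon bases with east on the opposite strand and 5.03% with usp on its own strand; reads in the latter stretch are ambiguous and were not counted for either gene.

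Mp20 (2R, 13246670 to 13248880, plus strand), a calponin-related protein of fly muscle, is the most abundant of the 8. Virgin 1, 2 and 3 held 146, 129 and 152 CPM, and mated 1, 2 and 3 held 280, 252 and 214 CPM. The lowest mated library was 62.5 CPM above the highest virgin one. The means of 142 ± 11.9 and 249 ± 32.8 CPM (SD, n = 3 each) differed by 0.80 ± 0.14 on the log2 scale (SE; adjusted p = 0.00851 in edgeR). Mp20 passed with each library left out in turn (adjusted p up to 0.0408), but not without virgin 2 and mated 1 together (log2 fold change 0.65, adjusted p = 0.0596).

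Neither regulator passed. Mef2 (2R, 9913496 to 9958858, minus strand) measured 59.6, 41.6 and 45.9 CPM in virgin 1, 2 and 3, and 67.7, 64.3 and 57.6 CPM in mated 1, 2 and 3. The groups overlapped, since virgin 1 was above mated 3. Its log2 fold change was 0.37 ± 0.15 (SE; 95% interval 0.03 to 0.70; adjusted p = 0.248 in edgeR). It ranged from 0.27 without virgin 2 to 0.56 without virgin 1 (adjusted p of 0.489 and 0.0732), and was 0.21 without virgin 2 and mated 1 together.

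The least abundant of the 8 was how (3R, 22042191 to 22079321, plus strand). Virgin libraries held 16.8, 19.0 and 17.1 CPM and mated libraries 19.4, 19.0 and 18.9 CPM, and the highest virgin value lay within the mated range. The log2 fold change was 0.12 ± 0.16 (SE; adjusted p = 0.764 in edgeR), and it was -0.14 with library size as the only scaling. Its 95% interval of -0.23 to 0.46 corresponds to mated levels between 0.853 and 1.38 times the virgin level.

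Fold changes depended on the scaling between libraries. Library size alone, without the TMM factors given above, took the median over all tested genes from -0.05 to -0.30 on the log2 scale. Under it, Zasp52, Actn and Mef2 had log2 fold changes of 0.16, 0.19 and 0.12. The 4 genes that rose kept their calls with that scaling, at 1.10 for Mlp84B, 0.92 for Mlp60A, 0.58 for Zasp66 and 0.55 for Mp20. In the same fit 1.7% of all genes passed as higher.

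**Figure D2:**
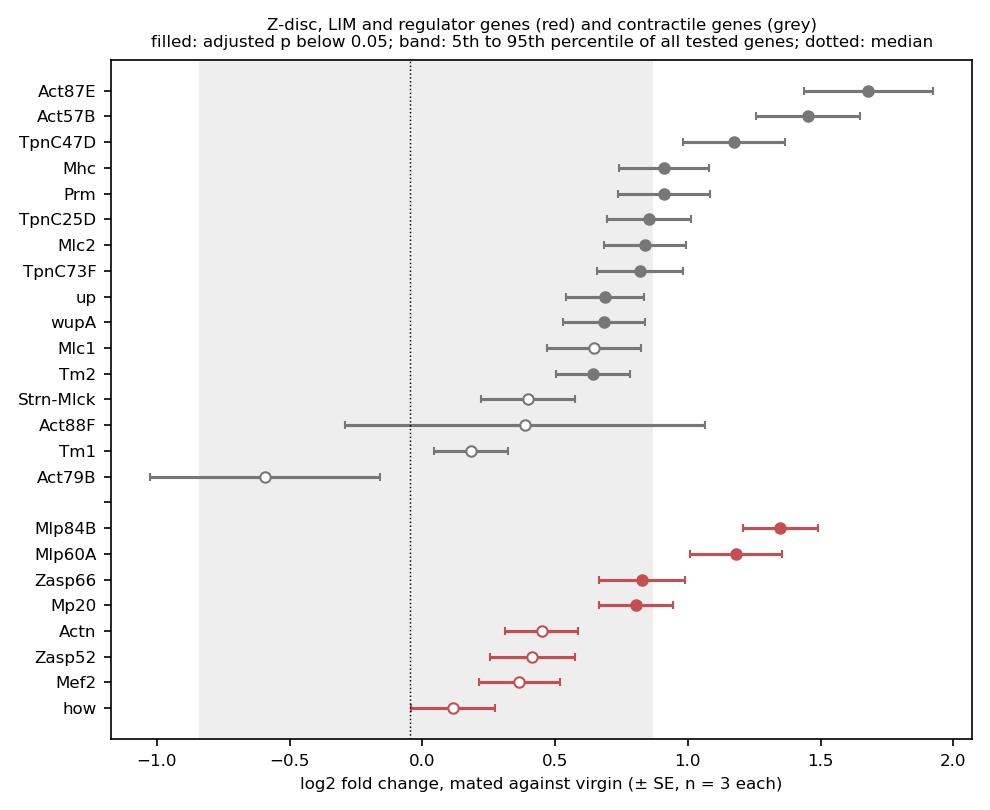
Log2 fold change ± SE of the 8 genes (red) and of the 16 tested contractile genes (grey), 3 virgin against 3 mated libraries, filled where the adjusted p was below 0.05; the band spans the 5th to 95th percentile of all tested genes (-0.84 to 0.86) and the dotted line their median. Mlp84B and Mlp60A lie beyond the band, and how lies near its middle.

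Levels between genes were compared as CPM per kilobase of merged exon. In virgin samples Mp20 stood first at 150 CPM per kilobase, with every library above all others, followed by Mlp60A at 21.6, Zasp66 at 20.8, Mlp84B at 15.9, Actn at 9.47, Zasp52 at 7.68, Mef2 at 5.34 and how at 3.46 CPM per kilobase. Neighbours in that order overlapped between libraries for Mlp60A and Zasp66, for Actn and Zasp52, and for Zasp52 and Mef2. In mated samples the order was Mp20 at 262, Mlp60A at 49.0, Mlp84B at 40.4, Zasp66 at 37.0, Actn at 12.9, Zasp52 at 10.2, Mef2 at 6.88 and how at 3.75 CPM per kilobase. Mlp84B thus stood above Zasp66 in mated and below it in virgin samples, though the libraries of these genes overlapped in the mated group. Exon length bears on this order: by the longest transcript, Zasp66 came second in mated samples at 58.0 CPM per kilobase, with Mlp60A at 56.3. By that length Zasp66 stood above Mlp84B in both groups, at 32.7 and 16.2 in virgin and 58.0 and 41.2 in mated samples. The change of order was thus lost. Zasp52 then stood above Actn in both groups, at 11.3 and 10.3 in virgin and 15.1 and 14.0 in mated samples.

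Contractile genes served as a common denominator within each library. This list of 18 genes held those for myosin, actins, tropomyosins, troponins and paramyosin, together with Strn-Mlck. The list summed to 2669, 2171 and 2425 CPM in virgin and to 4968, 4412 and 3504 CPM in mated libraries, all mated libraries being higher. Of its 16 tested genes 11 rose, 0 fell and 5 did not pass, with a median log2 fold change of 0.75 beside -0.05 for all tested genes. Among those that rose, Act57B, a muscle actin gene, had a log2 fold change of 1.45 ± 0.20, Act87E, another, 1.68 ± 0.24, and the troponin C gene TpnC47D 1.17 ± 0.19 (SE; adjusted p of 0.00195, 0.00563 and 0.0056 in edgeR). The number higher was 6 without virgin 2, virgin 3 or mated 1, 5 without mated 2, 3 without virgin 2 and mated 1 together, and 7 with library size as the only scaling. The list was written with earlier results of these data known.

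Set against that sum in the same library, which cancels scaling between libraries, the LIM genes were higher in every mated library. Mlp84B made up 2.00%, 2.20% and 1.98% of the contractile counts in virgin and 2.76%, 3.11% and 3.02% in mated libraries. Mlp60A went from 2.53 ± 0.117% to 3.22 ± 0.268% (SD, n = 3 each). For both genes the groups did not overlap, and the shares were 1.44 and 1.27 times as high in mated samples. The exact permutation p was 0.1 for each, the smallest that 3 against 3 libraries allow, and 0.138 adjusted over 11 ratios. Against Mhc alone, the log2 differences of Mlp84B and Mlp60A were 0.45 and 0.27 in place of 0.52 and 0.35. Gaining on the sum was not particular to them, since Act57B and Act87E had greater log2 fold changes (1.45 and 1.68). Tm1, the most abundant contractile gene in virgin samples (486 ± 51.6 CPM), had a log2 fold change of 0.18. Shares against the list without Tm1 were not computed.

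Mp20 and Zasp66 had shares that overlapped between the groups. Mp20 was at 5.90 ± 0.399% of the contractile counts in virgin and 5.82 ± 0.262% in mated samples, and Zasp66 at 2.42 ± 0.325% and 2.43 ± 0.12% (SD, n = 3 each). Both pairs of values differed by less than the spread between libraries (exact permutation p of 0.9 and 1). This depended on the denominator for Zasp66: against the list without the actin genes Act57B and Act87E, its log2 difference was 0.16 in place of 0.01 (exact permutation p = 0.1), and that of Mp20 was 0.13 in place of -0.02 (exact permutation p = 0.2).

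Lower shares in every mated library were seen for both regulators and Actn. The contractile sum was itself 1.77-fold higher in mated samples, so a gene that rose less than this sum has a lower share. In level, the log2 fold changes of Mef2, how and Actn were 0.37, 0.12 and 0.45, and the lower shares do not show a fall in level. Mef2 was at 2.23%, 1.92% and 1.89% of the contractile counts in virgin and at 1.36%, 1.46% and 1.64% in mated libraries. The share of how went from 0.628%, 0.875% and 0.704% to 0.391%, 0.43% and 0.539%, and that of Actn from 1.79%, 2.47% and 1.99% to 1.56%, 1.55% and 1.66%. For these 3 genes the groups did not overlap (exact permutation p = 0.1 each; 0.138 adjusted over 11 ratios). Virgin shares were 1.35, 1.62 and 1.30 times the mated ones. Zasp52 was at 3.45 ± 0.614% and 2.65 ± 0.441% (SD, n = 3 each), with groups that overlapped (exact permutation p = 0.2). By role, the LIM genes together went from 4.59 ± 0.178% to 6.19 ± 0.0994%, the 3 Z-disc genes from 7.96 ± 0.276% to 6.67 ± 0.545%, and both regulators from 2.75 ± 0.136% to 1.94 ± 0.22% (SD, n = 3 each; exact permutation p = 0.1 each). Without Act57B and Act87E in the denominator, the log2 difference of the Z-disc share was -0.11 in place of -0.26 (exact permutation p = 0.2), that of Actn -0.23 in place of -0.37, and that of Zasp52 -0.23 in place of -0.38.

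**Figure D3:**
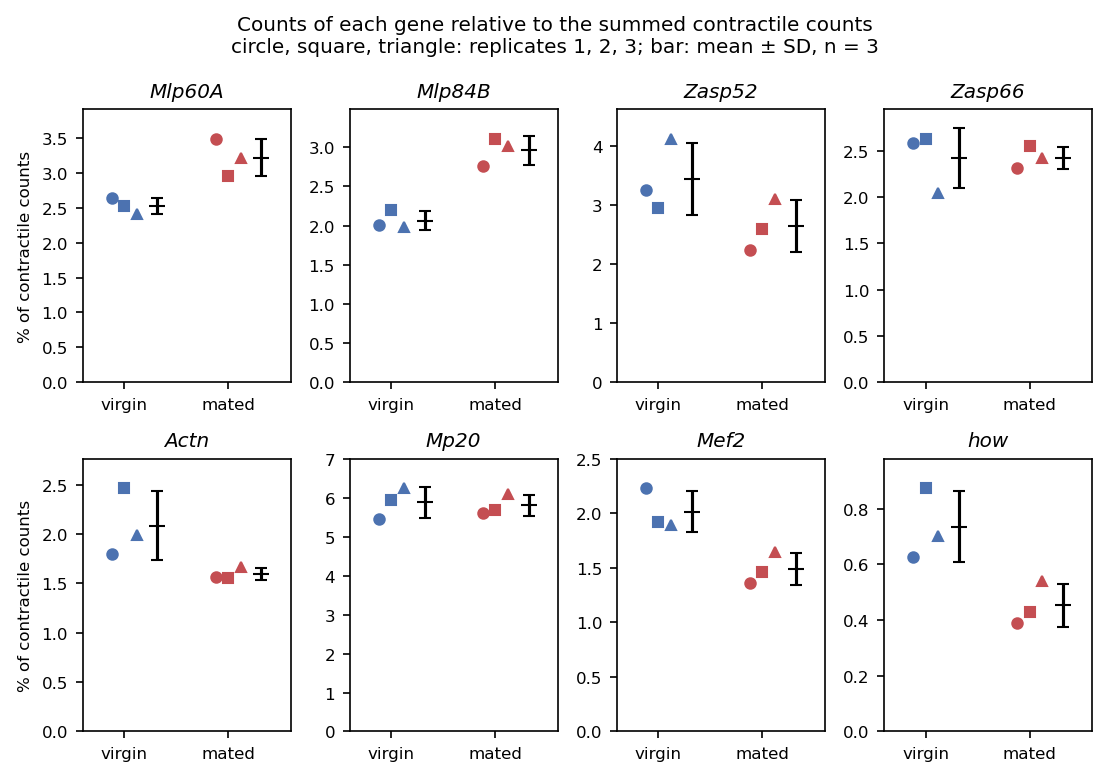
Counts of each gene as a percentage of the summed counts of 18 contractile genes in the same library (vertical axis, starting at 0), with libraries and groups marked as in the plot of levels. Mlp60A and Mlp84B are higher in all mated libraries, Actn, Mef2 and how are lower, and Zasp66, Mp20 and Zasp52 overlap.

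Counts of the genes were also set against each other within a library. Zasp66 had 1.18 ± 0.228 counts for each count of Actn in virgin and 1.52 ± 0.102 in mated samples, without overlap (SD, n = 3 each; exact permutation p = 0.1). Mlp84B had 1.00 ± 0.113 and 1.86 ± 0.127 counts for each count of Actn, also without overlap (exact permutation p = 0.1). By contrast Zasp52 had 1.70 ± 0.452 and 1.66 ± 0.221 counts for each count of Actn (exact permutation p = 1). Zasp66 had 0.727 ± 0.207 and 0.930 ± 0.135 counts for each count of Zasp52, with overlap (exact permutation p = 0.3). The counts thus did not set these 2 genes apart between the groups. Counts of Mef2 for each count of how were 2.81 ± 0.689 and 3.31 ± 0.228, with overlap (exact permutation p = 0.4). These pairs were chosen after the values were seen, and their p-values are not adjusted over the 6 pairs computed.

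The profiles over the 6 libraries were also compared by the root mean square difference of log2 CPM after centring each gene. Mlp60A and Mlp84B were nearest to each other (0.16 log2 units), as were Zasp66 and Mp20 (0.17), Zasp52 and Mef2 (0.19), and Actn and how (0.19). Mated 1 was the highest library for 6 of the 8 genes, and mated 3 the lowest mated library for all 8. Virgin 2 was the lowest library for 5. The 8 genes lay between 0.082 (Mp20) and 0.329 (Mlp84B) log2 units from their own mean profile, with how at 0.317. Each was farther from it than the 5 genes named next, but those 5 were picked as the nearest of 6588. That comparison therefore says nothing about the 8 genes. Of 6588 other genes with a mean of at least 5 CPM, the nearest to the mean profile of the 8 were CG10559 (0.06), the troponin T gene up (0.063), the ferritin heavy chain gene Fer1HCH (0.069), CG31637 (0.072) and CG17224 (0.073 log2 units), against a median difference of 0.43 over these genes.

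Of 11 other genes of the Z-disc and of sarcomere anchoring, 9 were tested, 1 rose and 8 did not pass, with a median log2 fold change of 0.26. The gene that rose was bt, for the titin-like protein projectin (94.7 ± 9.52 and 140 ± 10.6 CPM; log2 fold change 0.56 ± 0.13, SE; adjusted p = 0.0352 in edgeR). It did not pass with any 1 library left out. DESeq2 called 3 of the 9, the others being tn and Unc-89, which encodes the M-line protein obscurin. Of 14 further LIM-domain genes tested, 0 passed in edgeR, DESeq2 or limma-voom, and their median log2 fold change was -0.05. With an unadjusted p below 0.05 there was 1, esn, at low levels and lower in mated samples (1.45 ± 0.533 and 0.116 ± 0.107 CPM). The most abundant, smash, had 365 ± 26.1 and 389 ± 13.7 CPM. Of 5 calponin homology genes 0 passed in edgeR, 2 had an unadjusted p below 0.05, and DESeq2 called 1 and limma-voom 0 (median 0.20). The 2 were CG5023 and Chd64, both higher in mated samples, as were 8.39% of all tested genes at that p. CG5023, the gene called by DESeq2, measured 19.8 ± 3.86 and 31.6 ± 7.48 CPM without overlap of the groups (log2 fold change 0.68, adjusted p = 0.105 in edgeR). Chd64, which like Mp20 is a calponin relative, measured 464 ± 128 and 652 ± 67.6 CPM (adjusted p = 0.201 in edgeR). The most abundant of the 5 was kst, a spectrin gene, at 1057 ± 192 and 1212 ± 175 CPM.

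Among 22 other genes for transcription and splicing in muscle, 14 were tested and 0 passed in edgeR (median log2 fold change -0.12). Below an unadjusted p of 0.05 were 2, chn and nej, both lower in mated samples (log2 fold changes -1.59 and -0.35). DESeq2 called 1, chn, and limma-voom 0. Of the 14, akirin, the most abundant, stood at 108 ± 10.5 and 105 ± 15.6 CPM. Of the 4 tested relatives of how in the STAR family, 0 passed in edgeR, DESeq2 or limma-voom and 0 had an unadjusted p below 0.05 (median -0.21), with qkr58E-2 at 38.1 ± 4.96 and 32.8 ± 3.75 CPM. Of 17 integrin adhesion genes, which tie muscle to its matrix, 0 passed in edgeR or limma-voom (median 0.13). The gene if, higher in mated samples (log2 fold change 0.72), was the 1 below an unadjusted p of 0.05 and the 1 called by DESeq2. The most abundant, the integrin alpha chain gene scb, was at 339 ± 54.6 and 378 ± 17.4 CPM. Of 15 membrane and calcium genes of muscle 0 passed in edgeR, DESeq2 or limma-voom (median -0.09). Those with an unadjusted p below 0.05 were 2, Itp-r83A and slo, both lower in mated samples (log2 fold changes -0.36 and -0.44). Cam, for calmodulin, the most abundant, was at 1082 ± 235 and 1188 ± 161 CPM (SD, n = 3 each).

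Markers of other cells were measured alongside. Of 7 markers of flight and other somatic muscle, 0 of 4 tested passed in edgeR, 2 had an unadjusted p below 0.05, and DESeq2 called 1, Mf, and limma-voom 0. Of the 7, fln and TpnC41C were at 0 in all 6 libraries, TpnC4 was at or below 0.191 CPM, and the flight muscle actin Act88F measured 1.14 ± 0.0681 CPM in the virgin and 1.48 ± 0.86 CPM in the mated group (SD, n = 3 each). The other 3 were at higher levels. Act79B had 7.30 ± 4.39 and 4.87 ± 0.767 CPM. The 2 with an unadjusted p below 0.05 were Mf and Argk, both without overlap of the groups. The thick filament gene Mf had 159 ± 14.0 and 225 ± 33.3 CPM (log2 fold change 0.50, adjusted p = 0.0905 in edgeR). The arginine kinase gene Argk had 1517 ± 201 and 1931 ± 152 CPM (log2 fold change 0.35, adjusted p = 0.238 in edgeR). The summed level of this list, 1521 to 1929 CPM in virgin and 2047 to 2349 CPM in mated libraries, came mostly from Argk, which other tissues use as well. Ovary markers summed to 71.1 to 321 CPM in virgin and 97.5 to 244 CPM in mated libraries, and fat body markers to 79.7 to 301 and 102 to 289 CPM; both lists hold the yolk protein genes, with Yp1 the most abundant at 93.4 ± 53.7 and 58.0 ± 29.1 CPM. Of the 4 tested genes of either list, 0 passed in edgeR, DESeq2 or limma-voom, with 0 and 1 below an unadjusted p of 0.05. The 1 was apolpp of the fat body list, lower in mated samples (log2 fold change -1.04). In the list for Malpighian tubule, the excretory organ at the end of the midgut, Uro rose from 2.46 ± 1.23 to 26.9 ± 16.1 CPM (SD, n = 3 each; adjusted p = 0.0363 in edgeR), and the other 6 did not pass; the list summed to 53.0 to 77.9 CPM in virgin and 69.5 to 119 CPM in mated libraries. Markers of trachea, blood cells, neurons, hindgut, progenitor cells, enterocytes and enteroendocrine cells, 33 tested in all, gave 0 calls in edgeR and limma-voom, 1 in DESeq2, and 4 with an unadjusted p below 0.05. All 4 were higher in mated samples, as were 8.39% of all tested genes at that p. Of the 7 enteroendocrine genes they included 3, AstA, NPF and Dh31 (log2 fold changes 0.42, 0.54 and 0.76), and DESeq2 called NPF. The other was the enterocyte gene Tsp2A (0.34). The most abundant of each list were Gasp (11.1 CPM in virgin and 11.7 CPM in mated samples), crq (89.2 and 79.3), Syx1A (29.3 and 37.9), byn (2.75 and 2.08), esg (34.2 and 33.7), mesh (1670 and 1811) and Tk (130 and 111 CPM). These genes did not always stand for their lists. Log2 fold changes were positive in 3 of 7 tested genes for trachea, 1 of 3 for blood cells and 1 of 5, Syx1A, for neurons. They were positive in 0 of 1 for hindgut and 2 of 5 for progenitor cells. For enterocytes it was 4 of 5, and for enteroendocrine cells 4 of 7, with Tk among those lower. The part of these tissues in the rise of the muscle genes was not tested.

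**Figure D4:**
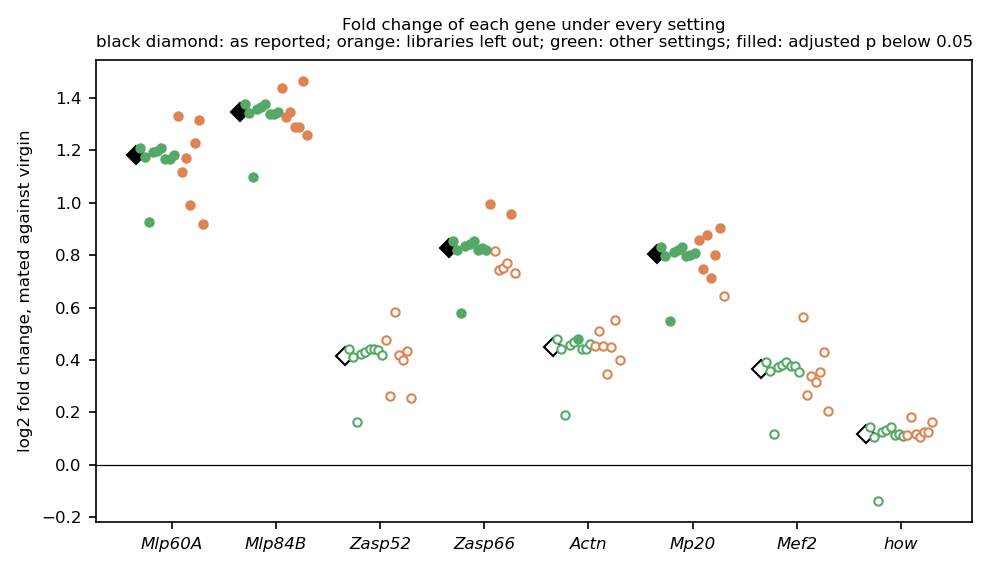
Log2 fold change of each gene (vertical axis) as reported (black diamond), with libraries left out (orange) and under the other settings (green), filled where the adjusted p was below 0.05. Mlp60A and Mlp84B are filled throughout, Zasp66 is open in most fits with fewer libraries, and the single value below 0 is that of how scaled by library size alone.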

How the data were processed

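RNA was measured in 3 virgin and 3 mated midgut pools. TRIzol extracts were made into stranded mRNA libraries, per the labels' protocols. STAR, CASAVA 1.8.4, DESeq2 1.42.0 and dm6 appear, with no role stated, in the submitters' processing notes; the sources used here do not name the gene annotation. The authors deposited raw counts, laid out as STAR writes them per gene, and those of the reverse strand were used. Summary rows, left out of library sizes, held 5.47% to 12.8% (unmapped), 4.31% to 7.67% (multiply placed, with every mated library above every virgin one), 4.82% to 8.93% (no gene) and 1.15% to 1.28% (ambiguous) of reads.

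Counts were tested with edgeR 4.0.16 in R 4.3.3 (filterByExpr, TMM, robust glmQLFit, then a two-sided glmQLFTest of group alone), adjusted by Benjamini-Hochberg over 8607 genes at 0.05. CPM use TMM-scaled library sizes; standard errors come from the F statistic. Positions and exon lengths are from an Ensembl annotation of the BDGP6 assembly, in dm6 coordinates, and its release number is not given here. Profiles used a pseudocount of 0.1 CPM. Single ratios were compared by exact permutation. The procedure was tested on simulated counts.

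Replicate libraries differed beyond sampling noise (chi-square over its degrees of freedom from 24.5 up). The genes and the lists beside them were chosen with earlier results of these data known. All 8 genes are named, with up to 3 passing genes of each list, or its most abundant gene where none passed, and the nearest profiles. Chosen after their values were seen were osk, to, tn, Unc-89, Chd64 and flight muscle markers other than Argk. So were the genes named for an unadjusted p below 0.05 or a DESeq2 call. The counts of list genes at that unadjusted p were not tested against all genes. Of all tested genes 8.39% were higher at it, and the share lower is not given here. Alternatives were other scalings and filters, DESeq2, limma-voom 3.58.1, a block for the replicate number, unstranded counts, libraries left out, a threshold of 0.01 and other denominators. The same alternatives were applied to the contractile and other Z-disc lists after the data were seen.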

Additional observations from a re-analysis of the deposited data

How the results depend on the processing

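Mlp60A and Mlp84B kept their calls under every setting run, with log2 fold changes of 0.92 to 1.33 and 1.10 to 1.46. Of the 8 genes 4 were higher in most settings, 3 or 4 with 1 library left out, 5 with DESeq2 and 2 without virgin 2 and mated 1 together, where Zasp66 (0.73, adjusted p = 0.134) and Mp20 (0.65, adjusted p = 0.0596) were lost. Zasp66 ranged from 0.74 to 1.00 with 1 library left out and was also lost at a threshold of 0.01 (0.83, adjusted p = 0.0163). Actn passed with DESeq2 only (0.48), and how was at -0.14 with library size as the only scaling. The number of genes higher and lower went from 213 and 140 to 118 to 208 and 51 to 100 with 1 library left out, 391 and 247 with DESeq2, 114 and 77 without virgin 2 and mated 1 together, 89 and 45 at 0.01, and 146 and 726 scaled by library size alone. The share of Zasp66 in the contractile counts had log2 differences of 0.01 as reported, -0.066 against Mhc alone, 0.16 against the list without Act57B and Act87E, and -0.106 to 0.0755 with 1 library left out. That of Mp20 was -0.02 as reported, -0.09 against Mhc alone and 0.13 against the list without Act57B and Act87E. It was 0.0123 without virgin 2 and mated 1 together, and -0.0704 to 0.0272 with 1 library left out. The causes were not tested. Of the other Z-disc genes, 0 were higher with any 1 library left out and 3 with DESeq2. Same-numbered libraries did not deviate together (correlations of -0.155, -0.0496 and -0.0272), so the numbers were not taken as pairs; with the replicate number as a block, 194 genes were higher, 96 lower and 4 of the 8 higher, and bt was lost.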
